A study of Mus musculus with 24 samples.

Results

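The small nuclear RNAs (snRNAs) described here are the reads that cauda epididymosomes gave on the RNA parts of the spliceosome. Epididymosomes are vesicles that the epididymis sheds into the fluid around maturing sperm. The members are the 103 transcripts that GENCODE M21 types as snRNA and that held at least 100 reads summed over all 24 libraries, of 1385 snRNA-type transcripts and 9910 transcripts in the deposited otherRNA class. The threshold used the reads themselves, so the members' total reads are a description. Just inside it lay Gm26108 with 109 reads, Gm27639 with 111 and Gm22979 with 118, and just outside it Gm22351 with 99, Gm23057 with 95 and Gm25805 with 92.

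Male C57BL/6J mice of 7 to 8 weeks carried implanted osmotic pumps for 6 weeks. Whether the phthalates were dissolved in the same vehicle as the control is not given in the labels. Of the 4 groups of 6 libraries, the DBP group received dibutyl phthalate at 2.5 mg/kg/day, the DEHP group di(2-ethylhexyl) phthalate at 2.5 mg/kg/day, the mixture group both at 2.5 mg/kg/day each, and the control group 50% DMSO. Vesicles were taken from the fluid of both incised caudae after sperm had been spun down, so vesicles of other cells were not separated from those of the epithelium. Fewer vesicles of a kind and less RNA per vesicle cannot be told apart in such bulk RNA. Nothing in the labels says whether a library came from 1 animal, so p values measure the spread between these libraries.

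snRNAs are short, stable RNAs that work in the nucleus as RNA-protein particles. U1 pairs with the 5′ splice site, U2 with the branch point, and U4, U5 and U6 join as a tri-particle in which U6 takes part in catalysis. U11 and U12 do for the rare minor introns what U1 and U2 do for the others. Mammalian genomes hold many near-copies of these genes, most of them pseudogenes, and most members carry only a predicted gene name. By best local alignment to the annotated genes, 34 members were closest to U1, 26 to U6, 9 to U2, 9 to U5, 4 to U12 and 1 was U11. A further 15 aligned with Gm24265, 1 was Gm22710, and 3 (Gm25541, Gm24922 and Gm24940) could not be assigned. The remaining member, Rnu7, is the U7 RNA of histone mRNA 3′ end processing and is not spliceosomal, so the label holds for the other annotated families only. No gene symbol in the annotation names U4, and the sets of Gm24265 and Gm22710 are therefore called by gene.

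The libraries held between 8.31e6 and 1.52e7 reads over all 7 RNA classes, of which 268839 to 624203 were otherRNA reads and 3577 to 12960 fell on the members. Members took 158088 of the 167109 reads on snRNA-type transcripts (94.6%) and 1.59% of all otherRNA reads. Libraries 1 to 3 of every group were sequenced on lane 6 and libraries 4 to 6 on lane 7. Libraries 5 and 6 of every group had a profile of their own, known from earlier work on these counts, and results are given with and without them where this matters. Erythrocyte miRNAs (miR-451a and miR-144-3p) had 0 reads, leukocyte miRNAs (miR-223-3p and miR-142a-3p) at most 0.786 reads per 1000000 (RPM), and smooth muscle miRNAs (miR-143-3p and miR-145a-5p) 4.75 to 33.6 RPM. Epididymis-known miRNAs, among them the let-7 family, together had 5.10 to 14.4 RPM, so miRNAs of the tissue itself were scarce as well. Low counts of the other miRNAs therefore do not show that their cells were absent. The part of any of these cells in the results below was not tested.

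The reads were concentrated on a few U1-like transcripts that are not the annotated U1 genes. Gm26361, in an intron of Rprd2 on the same strand (chr3:95796699-95796884, GRCm38), held 23905 reads, the intergenic Gm22513 (chr12:54696782-54696945) 21991, and Gm24621 17999. These 3 took 40.4% of the members' reads, and the 10 most read members 62.1%. The annotated U1 gene Rnu1a1 held 0 reads. All 3 leading transcripts share a stretch of 32 bases that no other of the 1383 snRNA-type transcripts with a sequence holds, printed here in capitals with Rnu1a1 and Rnu1b1, whose capitals mark the same positions. Sequences are transcripts of GENCODE M21 on GRCm38, written 5′ to 3′ in DNA letters.
Gm26361: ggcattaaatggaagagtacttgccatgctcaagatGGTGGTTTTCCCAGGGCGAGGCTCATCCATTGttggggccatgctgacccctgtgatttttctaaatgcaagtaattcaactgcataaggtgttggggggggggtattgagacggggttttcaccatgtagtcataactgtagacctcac
Gm22513: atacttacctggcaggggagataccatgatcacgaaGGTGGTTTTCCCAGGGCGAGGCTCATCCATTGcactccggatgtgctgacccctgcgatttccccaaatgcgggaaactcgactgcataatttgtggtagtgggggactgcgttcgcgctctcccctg
Gm24621: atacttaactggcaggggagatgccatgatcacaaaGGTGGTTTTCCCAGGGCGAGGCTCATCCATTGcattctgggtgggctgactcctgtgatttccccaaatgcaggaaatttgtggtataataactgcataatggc
Rnu1a1: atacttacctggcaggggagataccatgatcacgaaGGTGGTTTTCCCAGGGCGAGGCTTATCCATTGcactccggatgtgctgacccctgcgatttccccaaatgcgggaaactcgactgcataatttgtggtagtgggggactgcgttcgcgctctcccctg
Rnu1b1: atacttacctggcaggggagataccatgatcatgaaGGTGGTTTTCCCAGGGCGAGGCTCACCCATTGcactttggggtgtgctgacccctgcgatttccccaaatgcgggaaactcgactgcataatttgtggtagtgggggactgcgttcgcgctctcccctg

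Gm22513 differed from Rnu1a1 over its whole length only by T60C, the base of Rnu1a1 first, counted from the 5′ end. Within the capitals it differed from Rnu1b1 only by C62T, the base of Rnu1b1 first. Gm26361 and Gm24621 were less alike to Rnu1a1, at 63.3% and 73.2% identity against 99.4% for Gm22513. These 3 were picked by their reads, and where the reads lay along them was not examined. The marked stretch is therefore a description, and its part in the high counts was not tested. The ACTTACCTG by which U1 pairs with the 5′ splice site, searched on the transcript strand, stood in 18 of the 34 U1 members, Gm22513 among them. It was in 55 of 209 transcripts of the whole U1 family and in 3.98% of all snRNA-type transcripts.

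Transcripts with many identical copies in the annotation rarely held reads. Of 67 snRNA-type transcripts with at least 4 identical copies, 63 had 0 reads, and together they had 8. With a single copy, 293 of 1287 had 0 reads, and 94 were members. The 7 identical copies that include Rnu1a1 and the 43 that include Rnu6 had 0 reads in all 24 libraries, and the 4 that include Rnu2-10 had 7 in all. Levels of U1, U2 and U6 as RNA families can therefore not be read from these tables, and how the authors treated reads with several matches is not stated. By another measure, of 76 transcripts whose every 20-base word occurs in at least 10 transcripts, 73 had 0 reads. The members among them were Gm22614 and its identical copy Gm25890, with 2963 and 2050 reads. Identical copies did not always split their reads evenly either, as Rnu1b1 held 3112 reads and its identical copy Rnu1b2 held 1374. Other identical copies were closer, with 2730, 2587 and 2503 reads for Gm26232, Gm24830 and Rnu1b6, and 305 and 288 for Gm22505 and Gm22363. Because the split differed between sets, counts of near-identical copies are uncertain.

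Compared per length, the same 3 transcripts led. Their mean over 24 libraries, in counts per 1000000 otherRNA reads (CPM) per kilobase, was 14221 for Gm22513, 13523 for Gm26361 and 13519 for Gm24621, followed by Gm23672 at 7594. The median member had 278.8 CPM per kilobase and the lowest, Gm26108, 54.0. Not divided by length, their CPM averaged 2332 ± 892 for Gm22513, 2515 ± 861 for Gm26361 and 1893 ± 624 for Gm24621 (SD over 24 libraries). Per length their order changed between libraries: Gm22513 was below Gm26361 in 8 of 24 libraries, Gm24621 below Gm26361 in 12 and Gm24621 below Gm22513 in 16. Members were 56 to 200 bases long and came from 19 chromosomes, 52 of them between genes, 26 in an intron on the opposite strand and 18 in an intron on the same strand. A further 7 lay in an exon, 4 of them on its strand, and reads there cannot be told apart from those of the host since no source states the counting strand.

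In the U6 and U2 families the annotated Rnu6 and Rnu2-10 were not among the members either. Gm24708, U6-like, held 3930 reads, while Rnu6, with its 43 identical copies, held 0. The U6 sequence ACAGAGA, which pairs with the 5′ splice site, stood in 16 of 26 U6 members (61.5%), a share like that of the whole U6 family, with 579 of 962, and in 42.2% of all snRNA-type transcripts. The U5 loop GCCTTTTAC, with which U5 holds the exon ends, stood in 8 of 9 U5 members. It was in 9 of 11 transcripts of the whole U5 family and in 0.651% of all snRNA-type transcripts. The U2 branch point sequence GTAGTA was found in 6 of 9 U2 members, a share like that of the whole U2 family, with 32 of 53. It was in 3.69% of all snRNA-type transcripts. The annotated Rnu5g held 501 reads, Rnu11 2098 and Rnu12 605, each without an identical copy. The AATTTNTG of the Sm protein ring's binding site stood in 33 of 103 members, against 14.97% of all snRNA-type transcripts, and its longer form AATTTTTTG in 9 members, against 1.08%. These shares were not split by family, and the mix of families differed. U6 made up 26 of the 103 members but 962 of the 1383 transcripts searched, so the shares do not show that members hold the site more often.

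Gm24265 and Gm24407, neighbours on chromosome 5 (chr5:115489459-115489599 and chr5:115490254-115490394), differed by G88A and C99A, the base of Gm24265 first. Gm23672 (chr1:144609004-144609110), the fourth most read member with 7701 reads, shares with Gm24265 a longest stretch of 23 bases, in capitals below. That stretch is held by 8 snRNA-type transcripts.
Gm24265: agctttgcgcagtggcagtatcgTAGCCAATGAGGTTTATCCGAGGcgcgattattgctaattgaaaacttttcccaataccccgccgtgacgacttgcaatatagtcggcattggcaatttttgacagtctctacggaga
Gm23672: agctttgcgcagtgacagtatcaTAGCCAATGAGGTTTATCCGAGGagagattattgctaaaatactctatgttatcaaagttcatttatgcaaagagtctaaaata

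Between libraries, the members split into a part that was low and a part that was high in libraries 5 and 6. The 3 most read transcripts together had 2878 and 3689 CPM in DBP libraries 6 and 5, against 6399 to 9088 CPM in DBP libraries 1 to 4. They had 3805 to 4659 CPM in DEHP libraries 5 and 6, against 6309 to 9152 in DEHP libraries 1 to 4. In the mixture group they had 4090 to 4103 CPM in libraries 5 and 6, against 6198 to 9122 in libraries 1 to 4. Control libraries 5 and 6 had 3573 to 5515 CPM, against 5940 to 10816 in control libraries 1 to 4. In each group, libraries 5 and 6 lay below libraries 1 to 4 without overlap.

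**Figure D1:**
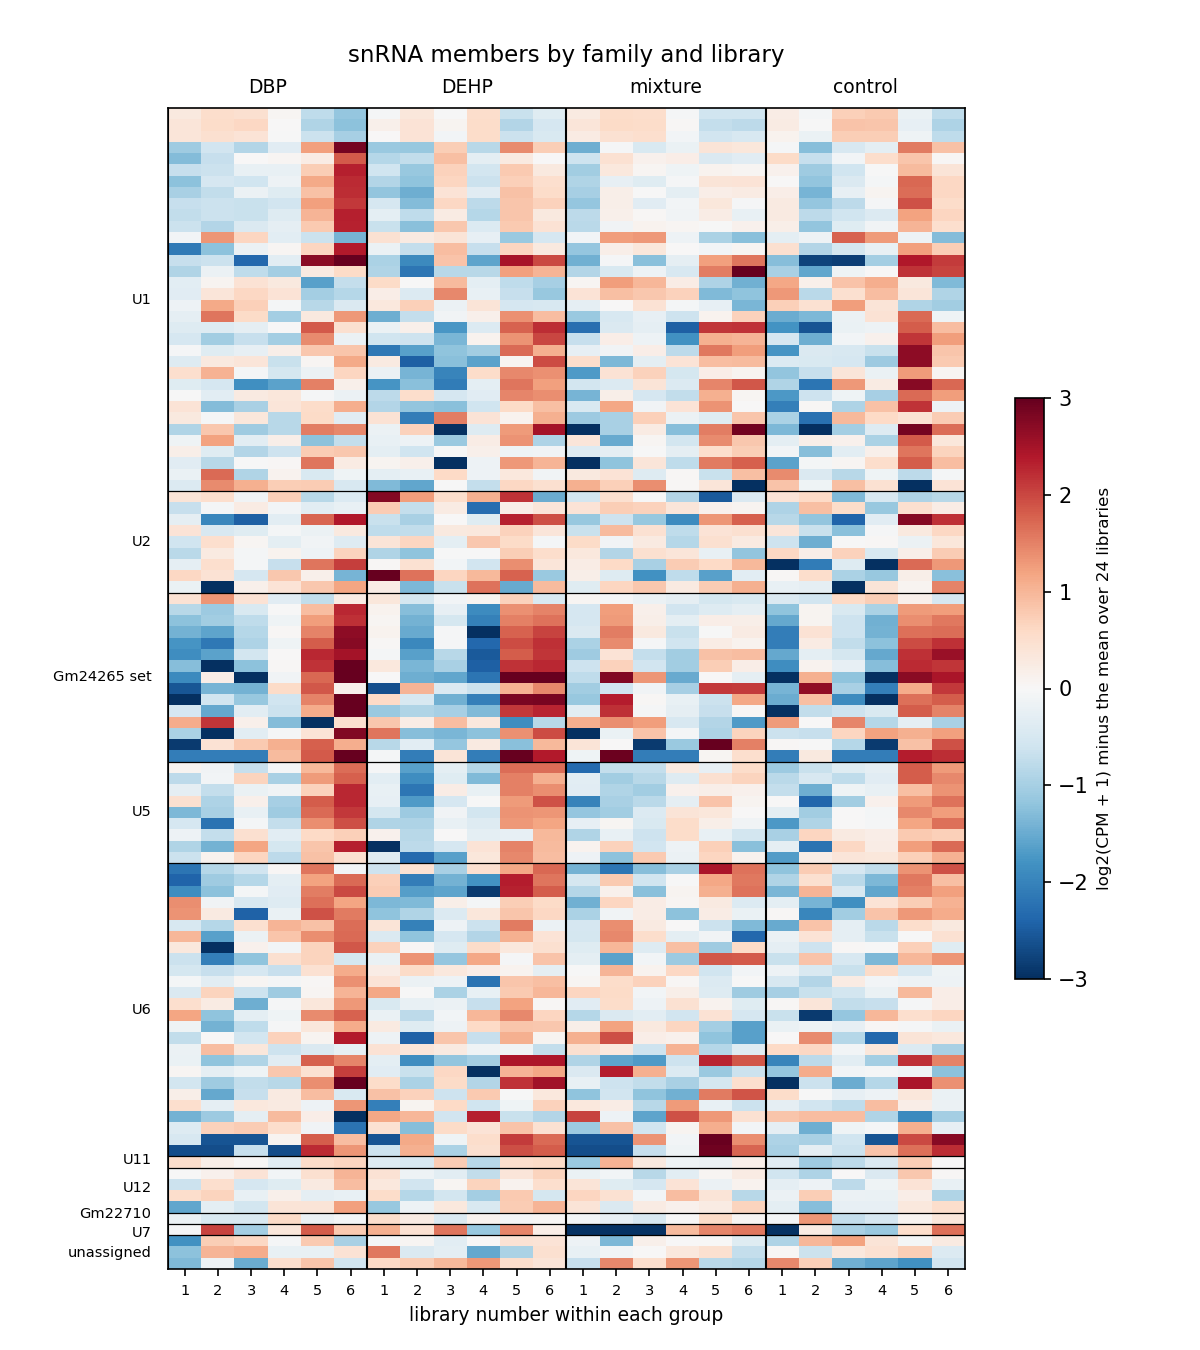
Level of the 103 snRNA members (rows, grouped by family) in each of the 24 libraries (columns, numbered within a group), as log2(CPM + 1) minus the member's mean over all libraries. Libraries 5 and 6 are darker red for most members of the Gm24265 set (less so in the mixture group), U5 and U6, and blue for the 3 most read U1 members in the top rows.

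Most other U1 members did not follow the 3 most read. Of all 34 U1 members, 25 had a higher mean in libraries 5 and 6 and 9 a lower one. Without the 3 most read, the U1 sum in libraries 5 and 6 was 1.32 (mixture) to 3.52 (DBP) times that in libraries 1 to 4. Its ranges overlapped in the DEHP and mixture groups. The U6 members also moved opposite to the 3 most read. They summed to 1694 to 2284 CPM in libraries 5 and 6, against 585 to 1129 CPM in libraries 1 to 4, again without overlap in any group. The U5 members summed to 299 to 968 CPM in libraries 5 and 6, against 87.7 to 300.2 in libraries 1 to 4, and did not overlap within a group. The Gm24265 set was higher by 3.04 to 3.67 times in libraries 5 and 6 of the DBP, DEHP and control groups, whereas in the mixture group the ratio was 0.913, with library 2 at 4479 CPM. Of the 103 members, 84 had a higher mean in libraries 5 and 6 and 55 were at least 2 times as high. These were 81.6% and 53.4% of the members, against 42.4% and 5.96% of the 4731 other otherRNA transcripts with at least 100 reads. Both sets were chosen on reads summed over the same libraries, so a transcript read mainly in libraries 5 and 6 could enter by those reads. The members' median ratio was 2.13, against 0.949 for the other transcripts. Among members the ratio ran from 0.278 for Gm22720 to 10.8 for Gm26110. Over the same libraries, snoRNA-type transcripts had 1777 to 2663 RPM in libraries 5 and 6, against 580 to 1493 in libraries 1 to 4. Mitochondrial rRNA (mt-Rnr1 and mt-Rnr2) had 707 to 3040 and 115 to 1608 RPM in these libraries. Their part was not tested.

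Within a library, the ratios between the 3 leading transcripts varied less than that of Gm22513 to Rnu1b1. The count of Gm22513 was 0.787 to 1.04 times that of Gm26361 in all 24 libraries, and that of Gm24621 was 0.695 to 0.845 times. Gm24621 had 0.720 to 1.03 times the count of Gm22513, with medians of 0.956 in libraries 5 and 6 and 0.775 in libraries 1 to 4, so the proportions were not fixed. By contrast, the count of Gm22513 was 0.599 to 36.8 times that of Rnu1b1, with medians of 2.94 in libraries 5 and 6 and 23.6 in libraries 1 to 4. The identical Rnu1b2 was 0.233 to 0.968 times Rnu1b1.

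**Figure D2:**
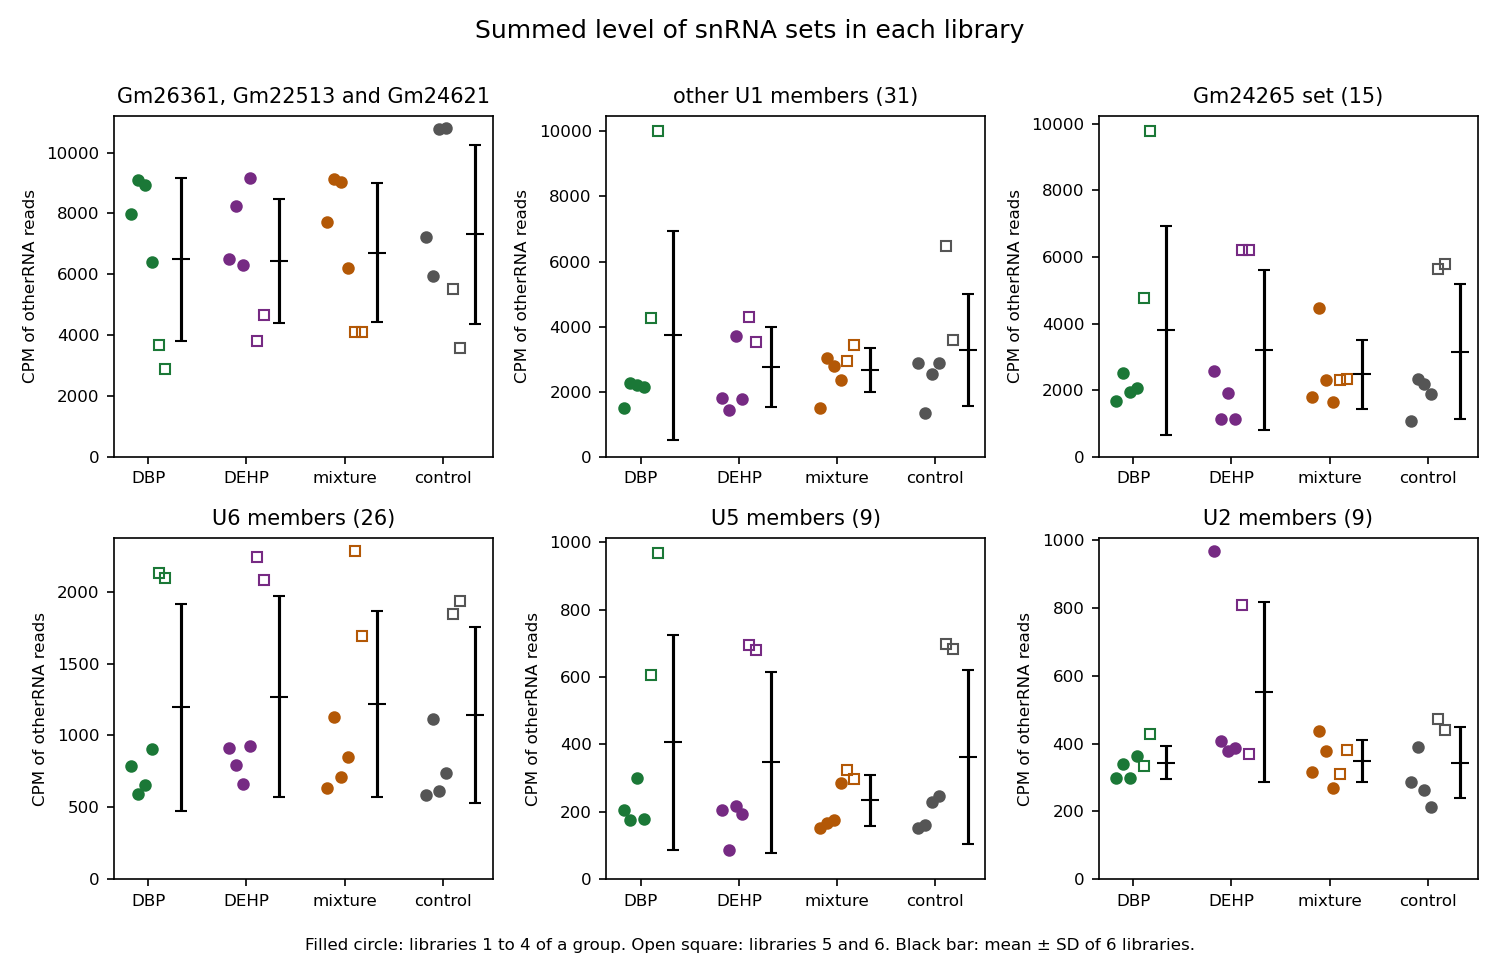
Summed CPM of otherRNA reads (y axis, from 0) of 6 sets of snRNA members in each library, by group. Filled circles are libraries 1 to 4, open squares libraries 5 and 6, and the bar is the mean ± SD of 6 libraries. The open squares lie below the circles for Gm26361, Gm22513 and Gm24621 and above them for U6 and U5, in every group.

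Summed over the members of a family in each library, the ranges of the 4 groups overlapped for U1, the Gm24265 set, U6 and U2. U1 members summed to 10224 ± 1885 CPM in DBP libraries, 9207 ± 1179 in DEHP, 9384 ± 2157 in the mixture and 10596 ± 2892 in control (SD, n = 6 each). The Gm24265 set summed to 3795 ± 3141 CPM in DBP libraries, 3200 ± 2396 in DEHP, 2476 ± 1026 in the mixture and 3157 ± 2029 in control. U6 members summed to 1195 ± 720 CPM in DBP libraries, 1269 ± 699 in DEHP, 1218 ± 649 in the mixture and 1140 ± 614 in control. For these 3 sets the largest gap between group means was smaller than the largest SD within a group. U2 members summed to 553 ± 265 CPM in DEHP libraries and to 344 ± 48.7 in DBP, 348 ± 60.7 in the mixture and 344 ± 104 in control, with DEHP libraries 1 and 5 at 969 and 808 CPM. Of these sums, Gm22073 and Gm22970 made up 569 and 136 CPM in library 1 and 379 and 45.8 CPM in library 5. The U2 members other than these 2 summed to 261 ± 85.1 CPM in DEHP libraries, against 263 ± 113 CPM in control libraries (SD, n = 6 each). The median log2 fold change of the 6 tested U2 members was 0.02 for DEHP against control.

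The sequencing lane, read from the run names, was compared next. All libraries 5 and 6 were on lane 7, so the lane comparison over all libraries includes the difference of libraries 5 and 6. Only library 4 of each group was on lane 7 without being among these. Of the 83 members that passed the filter on low counts, 38 differed between lane 7 and lane 6 at adjusted p under 0.05 (edgeR quasi-likelihood test, Benjamini-Hochberg over 3732 transcripts), against 11.5% of all transcripts tested. At unadjusted p under 0.05 there were 59, against 28.3% of all. Of the 38 called, 33 were higher on lane 7, where 8.09% of all transcripts were, and 5 were lower, where 3.43% were. The median log2 difference of the members was 0.88, against -0.03 over all transcripts. In libraries 1 to 4 alone, which leave library 4 of each group on lane 7, edgeR called 0 of 62 tested members and 0.0% of 3643 transcripts by lane. At unadjusted p under 0.05 there were 2 members, against 3.35% of all transcripts, which is no more than the background, and the members' median was -0.01.

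The lane calls, which include the difference of libraries 5 and 6, fell on several families. They were 18 of 26 tested U1 members, 7 of 22 U6, 6 of 9 U5, 5 of 12 in the Gm24265 set, 1 of 6 U2 and 1 of 4 U12. The 5 lower on lane 7 were Gm22720, Gm22739, Gm25818, Gm25514 and Gm22513, the last with a log2 difference of -0.69 ± 0.21 (SE, adjusted p = 0.0305, edgeR). Small Cajal body RNAs, which guide the modification of snRNAs, moved likewise: 10 of 15 tested were higher on lane 7 and 1 lower, with a median of 1.12. Among these, Scarna3a had a log2 difference of 1.94 ± 0.31 and Gm24289 2.85 ± 0.45 (SE, adjusted p = 0.000618 each, edgeR). The 7SK RNA (Rn7sk), which holds back the elongation factor P-TEFb, differed by -0.17 and the 2 SRP RNA genes by 0.01 each, none of them called. Of 12 tested U3, U8 and U13 RNAs of ribosome synthesis, 1 Rnu3a transcript (0.58 ± 0.17) and Snord13 (1.11 ± 0.29) were called higher. Another Rnu3a transcript (0.55 ± 0.18, adjusted p = 0.0525, edgeR) was not called, and the Rnu3b transcripts lay between -0.10 and -0.03. Of the Y and vault RNAs, 0 of 3 were called by edgeR, with 1 at unadjusted p under 0.05.

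Between the exposure groups, no member differed from control at adjusted p under 0.05. For DBP against control this was 0 of 83 members, against 0.0% of all 3732 transcripts. At unadjusted p under 0.05 there were 2 members (2.41%), against 3.99% of all transcripts, and by the labels' criterion of a 1.5-fold change at unadjusted p under 0.01 there were 0 members, against 0.348%. The members' median log2 fold change was 0.14, against 0.01 over all transcripts, with 52 above and 31 below 0. It was -0.15 in lane 6 libraries, 0.24 in lane 7 libraries and -0.18 without DBP replicate 6, so its sign depends on a few libraries. DESeq2's Wald test called 0 members, with 3 at unadjusted p under 0.05, and limma's voom with quality weights 0, with 1.

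Gm25682, U1-like in an intron of Gm28905, had the smallest p of the members. It had 9.97, 8.80, 2.89, 3.56, 38.7 and 14.6 CPM in DBP libraries 1 to 6, against 6.54, 2.09, 33.2, 15.6, 91.4 and 45.5 CPM in control libraries. The groups overlapped, and libraries 5 of both were the highest of their group. Its log2 fold change was -1.30 ± 0.57 (SE, adjusted p = 0.995, edgeR). Without control replicate 5 this was -0.85. Gm24316, U6-like, had 49.9, 8.80, 17.3, 19.6, 59.1 and 75.3 CPM in DBP libraries, against 13.1, 2.09, 9.06, 44.3, 31.2 and 34.5 CPM in control libraries. DBP libraries 1, 5 and 6 exceeded all control libraries and the other 3 did not. The log2 fold change was 0.84 ± 0.38 (SE, adjusted p = 0.995, edgeR), and 0.47 in lane 7 libraries.

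For DEHP against control, 0 of 83 members were called, against 0.0% of all transcripts, and 2 members (2.41%) passed unadjusted p under 0.05, against 2.73%. By the labels' criterion there was 1 member, Gm22073, against 0.375% of all transcripts. The median log2 fold change of the members was -0.02, against 0.00 over all transcripts, with 41 above and 42 below 0. DESeq2 and voom called 0 members, with 2 and 1 at unadjusted p under 0.05.

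Gm22073 is a U2-like transcript in an intron of Iqschfp, on the opposite strand (chr3:68547520-68547708), at 70.3% identity to Rnu2-10. It was picked from these counts, so its values are a description. It had 569, 202, 123, 176, 379 and 29.2 CPM in DEHP libraries 1 to 6, against 111, 127, 33.2, 59.9, 43.6 and 47.1 CPM in control libraries. DBP libraries had 110, 119, 77.9, 139, 46.9 and 62.7 CPM, and mixture libraries 57.6, 117, 82.9, 45.1, 13.8 and 62.2 CPM. DEHP libraries 1, 2, 4 and 5 exceeded every control library, library 3 lay just under the highest control and library 6 below them all. The mean was 246 ± 196 CPM in DEHP libraries, 92.5 ± 35.6 in DBP, 63.1 ± 34.9 in the mixture and 70.4 ± 39.1 in control (SD, n = 6 each), so the gap to control is smaller than the SD within DEHP. Smooth muscle miRNAs were at 6.23 to 33.6 RPM in DEHP libraries, against 9.90 to 27.2 RPM in control libraries, and between 15.3 and 16.9 RPM in DEHP libraries 1 and 5. Their part in the difference was not tested.

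**Figure D3:**
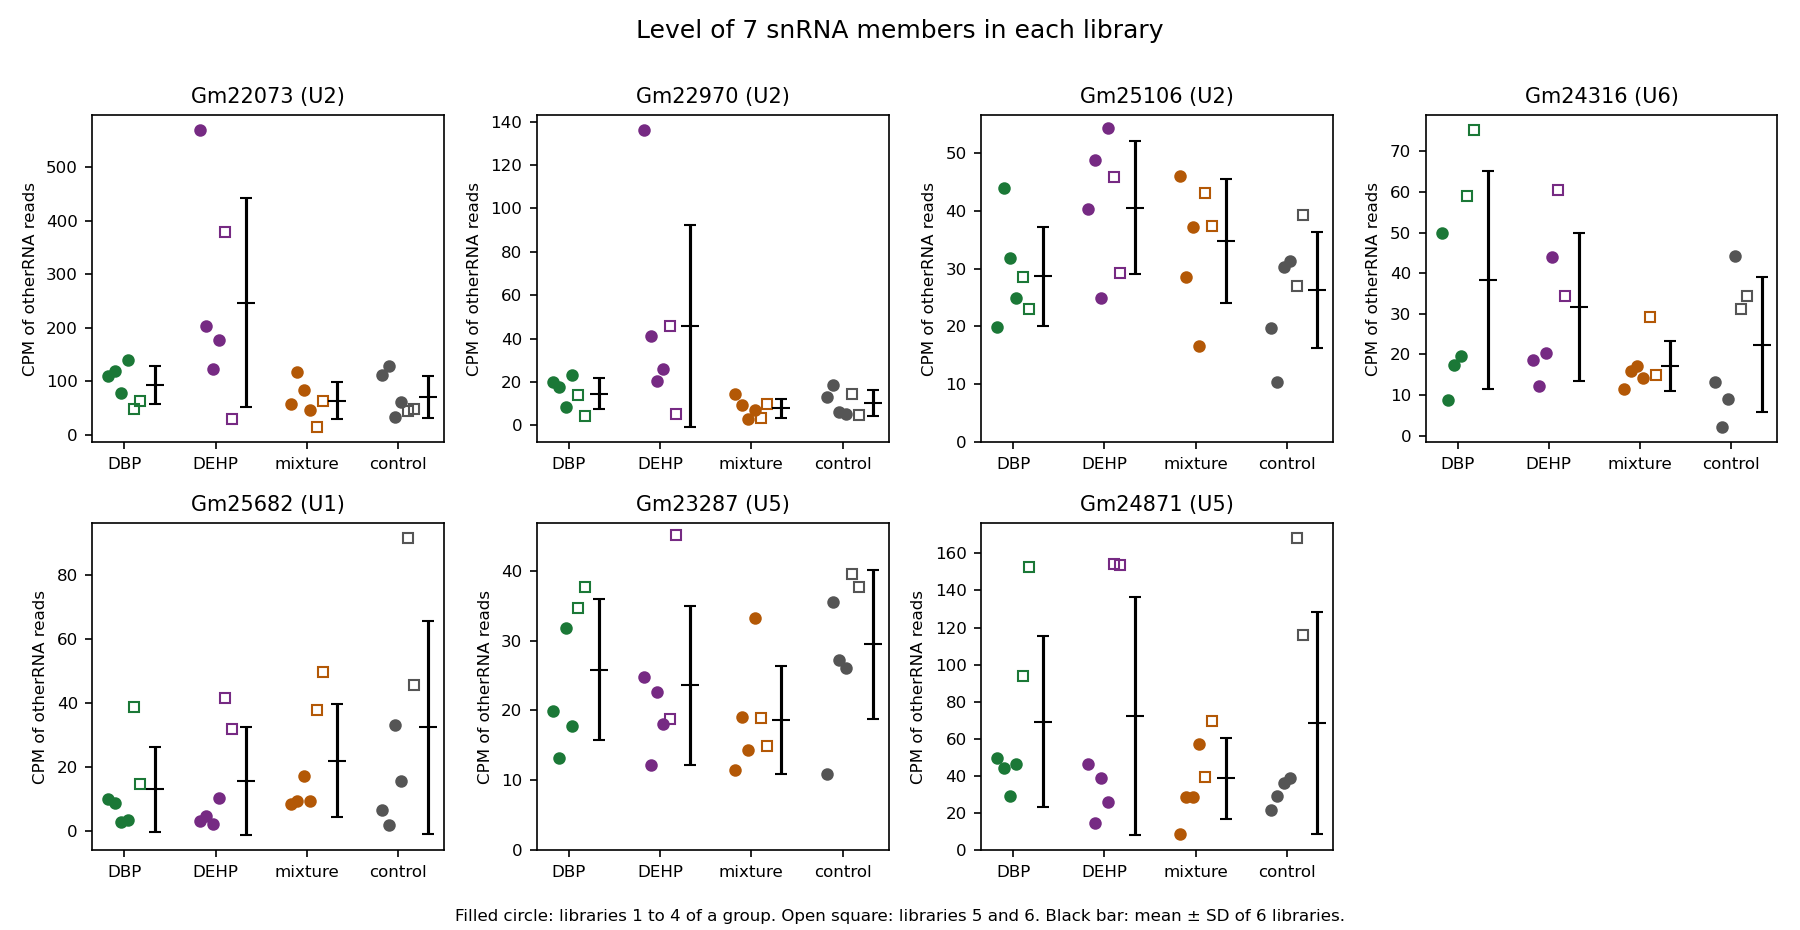
CPM of otherRNA reads (y axis) of 7 named snRNA members in each library, by group, with filled circles for libraries 1 to 4, open squares for libraries 5 and 6 and bars for the mean ± SD of 6 libraries. For Gm22073, DEHP libraries 1 and 5 stand at 569 and 379 CPM, and DEHP library 6 at 29.2 CPM is below every control library.

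The log2 fold change of Gm22073 was 1.81 ± 0.44 for DEHP against control (SE, adjusted p = 0.999, edgeR). Over the 25 alternative fits, which share libraries, it ran from 1.42 to 2.03 and kept its sign. Its adjusted p was 0.0268 with no filter on low counts and between 0.0815 and 1 in the other alternatives. For mixture against DEHP it was -2.03 ± 0.45 (adjusted p = 0.472, edgeR), and -2.30 to -1.60 over the 25 alternatives. The adjusted p was 0.0285 without DEHP replicate 6, its lowest DEHP library, and 0.00435 with no filter (edgeR). No other alternative called Gm22073 in this comparison. Among them, the adjusted p was 0.05895 by DESeq2 and 0.998 by voom. In edgeR it was 0.9998 with no lane term and 0.9999 without DEHP replicate 5. For DBP against DEHP the log2 fold change was -1.37 ± 0.43 (adjusted p = 0.991, edgeR).

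A second U2-like member, Gm22970, in an intron of Gm37093 on the same strand (chr14:99773623-99773808), was chosen after its values were seen, and it was not among the 83 tested. Its reads were 44, 17, 9, 10, 22 and 2 in DEHP libraries 1 to 6, against 6, 9, 2, 2, 7 and 3 in control libraries. DBP libraries had 6, 4, 3, 13, 7 and 2 reads and mixture libraries 5, 3, 1, 3, 2 and 4. DEHP library 1 was the highest and DEHP library 6 the lowest of its group, as for Gm22073. With no filter on low counts, edgeR gave a log2 fold change of 1.99 ± 0.43 for DEHP against control (adjusted p = 0.113) and -2.43 ± 0.47 for mixture against DEHP (adjusted p = 0.0150). Capitals mark in both the longest stretch they share, 15 bases, and in Rnu2-10 the branch point sequence GTAGTA.
Gm22073: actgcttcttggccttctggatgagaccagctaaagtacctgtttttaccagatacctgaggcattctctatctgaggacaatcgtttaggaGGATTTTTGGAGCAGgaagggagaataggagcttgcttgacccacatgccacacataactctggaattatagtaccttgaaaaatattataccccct
Gm22970: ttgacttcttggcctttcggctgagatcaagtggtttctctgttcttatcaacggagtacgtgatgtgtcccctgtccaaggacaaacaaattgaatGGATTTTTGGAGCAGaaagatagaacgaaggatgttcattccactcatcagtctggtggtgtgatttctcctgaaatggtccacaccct
Rnu2-10: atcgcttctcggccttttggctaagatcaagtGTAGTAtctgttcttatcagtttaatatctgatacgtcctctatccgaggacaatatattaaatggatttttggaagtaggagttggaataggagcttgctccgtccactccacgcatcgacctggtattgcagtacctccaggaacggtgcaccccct

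Gm22073 and Gm22970 were at 63.5% identity to each other, and no other snRNA-type transcript holds their 15 bases. Of these bases, the first 11 also stand in Rnu2-10, and 17 snRNA-type transcripts hold those 11. Neither Gm22073 nor Gm22970 holds GTAGTA. Gm25106, U2-like in an intron of Ikzf3, had 40.2, 48.7, 24.97, 54.3, 45.8 and 29.2 CPM in DEHP libraries 1 to 6, against 19.6, 10.4, 30.2, 31.3, 27.0 and 39.2 CPM in control libraries. DEHP libraries 1, 2, 4 and 5 exceeded every control library and the other 2 lay within their range. Its log2 fold change was 0.62 ± 0.28 (SE, adjusted p = 0.999, edgeR), and 0.38 in lane 7 libraries.

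For the mixture against control, 0 of 83 members were called, against 0.0% of all transcripts, and 1 (1.205%) passed unadjusted p under 0.05, against 2.6%. By the labels' criterion there were 0, against 0.348%. DESeq2 and voom called 0, each with 0 at unadjusted p under 0.05. Of the tested members 33 lay above and 50 below 0, with a median log2 fold change of -0.17, against 0.02 over all transcripts. The U5 members were below 0 in 9 of 9 (median -0.60) and the U1 members in 24 of 26 (median -0.31), whereas 16 of 22 U6 members were above (median 0.12). Of all transcripts, 54.2% lay above 0. Members of a family share sequence and were counted in the same libraries, so their directions are not independent. These U1 and U5 counts were the same with DESeq2 size factors and with library totals, and 23 of 25 and 9 of 9 with the 7 classes joined. In libraries 1 to 4 alone, 11 of 20 U1 members lay above 0 and the U5 median was -0.03, over 5 members. The median of all members was 0.25 in lane 6 libraries and -0.62 in lane 7 libraries. Without control replicate 5 it was 0.04. None of the U1 or U5 members was called.

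The 2 members with the smallest p were both U5-like. Gm23287 had 11.5, 18.98, 14.3, 33.2, 18.9 and 14.9 CPM in mixture libraries 1 to 6, against 10.9, 35.5, 27.2, 26.1, 39.5 and 37.6 CPM in control libraries. Its log2 fold change was -0.67 ± 0.32 (SE, adjusted p = 0.9997, edgeR), and -0.34 in libraries 1 to 4. Gm24871, in an exon of B930036N10Rik on the same strand, had 8.63, 28.5, 28.6, 57.0, 39.6 and 69.7 CPM in mixture libraries, against 21.8, 29.2, 36.3, 39.1, 168 and 116 CPM in control libraries. The groups overlapped for both, and the gap of Gm24871 lay in libraries 5 and 6. Its log2 fold change was -0.79 ± 0.41 (SE, adjusted p = 0.9997, edgeR), and -0.03 in libraries 1 to 4.

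**Figure D4:**
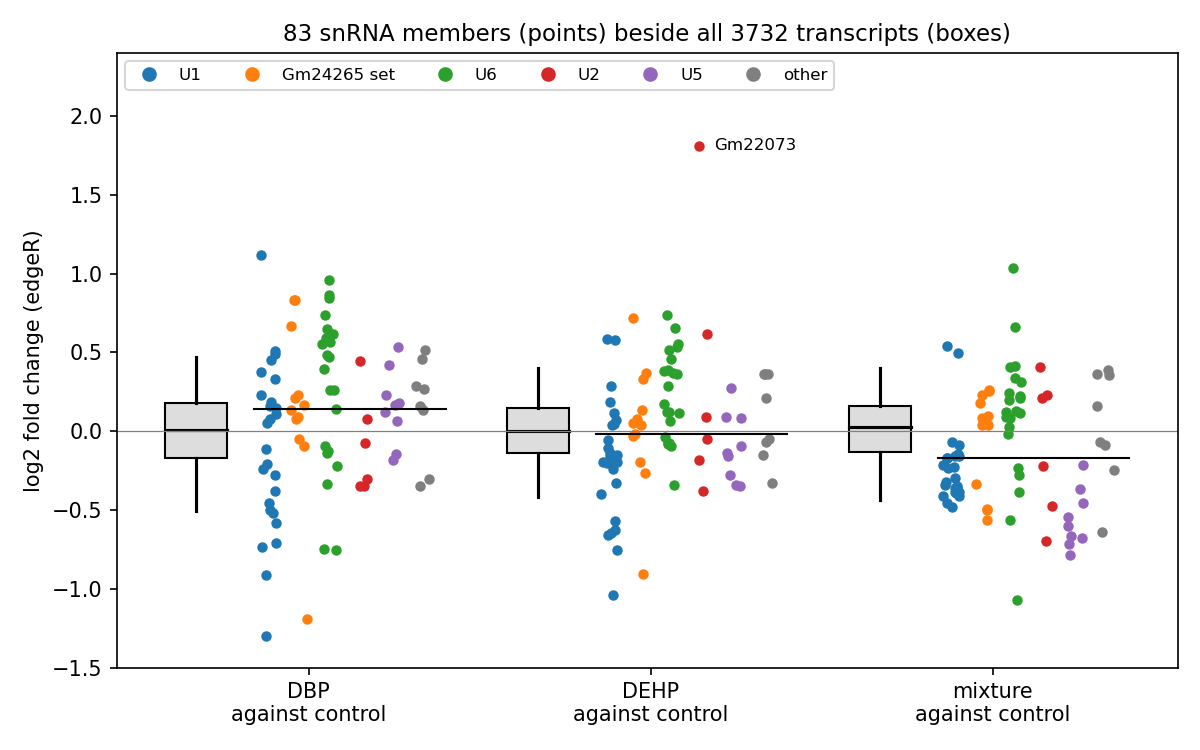
Log2 fold changes against control from edgeR (y axis) of the 83 tested snRNA members, as points by family, with their median as a line. The box beside them spans the quartiles of all 3732 transcripts, with whiskers at 5% and 95%. In the DEHP comparison, Gm22073 at 1.81 stands above the other members, and for the mixture the U1 and U5 points lie mostly below 0.

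The exposed groups were also compared with each other. For DBP against DEHP, 0 of 83 members were called (0.0% of all transcripts), 1 met the labels' criterion (0.295% of all) and 3 passed unadjusted p under 0.05 (3.72% of all). For mixture against DBP, 0 were called (0.0%), 1 met the labels' criterion (0.831%) and 7 passed unadjusted p under 0.05 (8.43%, against 5.36%). The 7 had 6 lower members, of which Gm24316 had the smallest p, with a log2 fold change of -1.12 ± 0.40 (SE, adjusted p = 0.854, edgeR). For mixture against DEHP, 0 were called (0.0%), 1 met the labels' criterion (0.509%) and 4 passed unadjusted p under 0.05 (3.27% of all). In the same order of comparisons, DESeq2 called 0 members in each, with 3, 7 and 3 at unadjusted p under 0.05, and voom 0 in each, with 0, 4 and 2.

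The interaction of DBP and DEHP asks whether the effect of both together differs from the sum of their separate effects on the log2 scale. It called 0 of 83 members (0.0% of all transcripts). By the labels' criterion there were 3 (0.857% of all), and at unadjusted p under 0.05 there were 5 (4.15% of all). The interaction of Gm22073 was -2.48 ± 0.64 (SE, adjusted p = 0.540, edgeR), and it was negative in all 37 alternative fits. These fits share libraries and Gm22073 was picked from the same counts, so the kept sign is a description. The interaction uses the same DEHP libraries as the comparisons of Gm22073 given above. DESeq2 called 0 members, with 6 at unadjusted p under 0.05, and voom 0, with 4. Besides Gm22073, the other 2 members that met the labels' criterion in edgeR were Gm24316 (-1.67 ± 0.55) and the U1-like Gm25189 (2.17 ± 0.76). They are named here after their values were seen.

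Related RNAs gave as few calls between groups. The 1282 snRNA-type transcripts below the threshold had 9021 reads together and none was tested. Of the 15 tested small Cajal body RNAs, 0 were called in any comparison with control, by edgeR, with 1 at unadjusted p under 0.05 in the DEHP comparison and 0 in the others. Their medians were -0.06 under DBP, -0.12 under DEHP and -0.17 under the mixture. 7SK RNA had log2 fold changes of -0.05, 0.02 and -0.03 in the same order. The 2 SRP RNAs, the 12 U3, U8 and U13 RNAs and the 3 Y and vault RNAs were at medians between -0.12 and 0.06. None of these was called, and none passed unadjusted p under 0.05. The nuclear lncRNAs Malat1 and Neat1 together had 290 ± 47.5 RPM in DEHP libraries, 281 ± 40.4 in DBP, 259 ± 23.97 in the mixture and 277 ± 51.0 in control (SD, n = 6 each).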

How the data were processed

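Small RNA of cauda epididymosomes was sequenced in 24 libraries, 4 groups of 6. The deposited counts are whole reads per reference in 7 classes, in column 3 of each table, as the authors left them. Per the submitters' processing notes, cutadapt, STAR 2.7.6a and edgeR were used. Build, annotation release, counting strand and handling of reads with several matches are not stated in these sources. Of otherRNA identifiers, 98.0% matched GENCODE M21 on GRCm38, the source of names, types, positions and sequences. Members and lists were chosen with earlier results of these data known.

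The otherRNA table was fitted with edgeR 4.0.16 (quasi-likelihood, two-sided) in R 4.3.3, with a term per group and lane, TMM factors (0.805 to 1.17) and filterByExpr, which left 3732 transcripts (83 members). The biological coefficient of variation was 28.6%. Adjusted p covers all of them, with a threshold of 0.05. CPM are counts per 1000000 TMM-scaled otherRNA reads, and RPM reads per 1000000 of all 7 classes. Depth limits precision: the members held 3577 to 12960 reads a library. Families were set by local alignment at a score of at least 0.25 per base. Named members were Gm22073, the 6 most read, the 2 of smallest p per comparison with control, the 1 of smallest p in each other, and those passing the labels' criterion (1.5-fold, p under 0.01) against control. Libraries 5 and 6 stood apart from 1 to 4 in earlier work on the same counts. DESeq2 1.42.0, limma 3.58.1, other scalings and filters, lane subsets and leaving out each library were alternatives. The fit was also run on simulated counts with known changes. These held no difference of lane or of libraries 5 and 6, so the fit was not tested under such differences.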

Additional observations from a re-analysis of the deposited data

Results flagged for a closer look

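In 14 of 104 sets of 6 libraries (13.5%), 1 library lay far from the nearest other. Chance alone flags about 1 in 20 independent sets, but these sets share reads and libraries, so that rate gives no chance value for the 14. All 14 were the highest of their group.

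In mixture library 2, Gm24265 had 977 CPM (nearest 460), Gm24407 797 CPM and the summed Gm24265 set 4479 CPM. In DBP library 6, Gm24265 had 1962 CPM (nearest 781), the summed U12 members 261 CPM, the U1 members other than the 3 most read 10005 CPM, and all members 27105 CPM. In DBP library 5, Gm25682 had 38.7 CPM, and in DBP library 4, Gm22710 had 496 CPM (nearest 320). In mixture library 5, Gm24316 had 29.3 CPM, and in mixture library 4, Gm23287 had 33.2 CPM. Gm22970 had 136 CPM in DEHP library 1 (nearest 45.8). In control library 2, Gm22710 had 841 CPM (nearest 427), and in control library 5 the U12 members summed to 208 CPM.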

How the results depend on the processing

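No member was called in any of the 7 comparisons of groups under the other scalings, the stricter filter, the replicate block, no lane term, a term for libraries 5 and 6, DESeq2 or voom, or in libraries 1 to 4 or single lanes. The count of members called in DEHP against control was 1 with no filter on low counts (Gm22073), which was then also the only otherRNA transcript called. In mixture against DEHP it was 2 with no filter (Gm22073 and Gm22970), likewise all the otherRNA transcripts called. Leaving out each replicate moved the counts of mixture against DEHP, of members and of all transcripts, between 0 and 2, with 2 without DEHP replicate 6, and the cause was not tested. In the other 6 comparisons leaving out a replicate gave 0 each time. For lane 7 against lane 6 the 38 members became 61 with no filter, and 0 in libraries 1 to 4, where 0 otherRNA transcripts were called as well. That setting tests fewer transcripts and libraries. It was among 6 lane settings added after the data were seen, the other 4 giving 36 to 39.

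With a replicate block, 0 members were called in every comparison. Same-numbered libraries of different groups correlated at -0.16 to 0.60 in their deviations from group means, and 28 of 36 pairs lay above 0.1, so the numbers do not pair all libraries. Of 255 alternative values for named members, 252 kept side and sign, and 3, all Gm22073, passed the threshold, while none changed sign. These fits share libraries and the members were named from the same counts, so this is a description. Depth limits the low members: 20 of 103 did not pass the filter.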
